A study of Homo sapiens with 4 samples.

Results

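Cytosolic ribosomal protein genes encode the protein components of the ribosomes that translate nuclear-encoded mRNA. They were taken here as the protein-coding RefSeq genes on chromosomes 1 to 22 whose symbol is RPL or RPS followed by a digit, plus RPLP0, RPLP1, RPLP2 and RPSA, without the RPS6K kinases and RPS19BP1. The rule gave 83 members among 19126 protein-coding genes. Of these, 51 belong to the large subunit and 32 to the small subunit. They comprise 73 standard genes (43 large, 30 small), 8 paralogs whose symbols end in L or L1, and 2 readthrough genes that join a ribosomal protein gene to its neighbour.

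The study mapped chromatin binding by CUT&Tag, in which an antibody directs a transposase to its target and the tagged DNA is sequenced. All 4 libraries came from NB4, a human acute promyelocytic leukemia cell line that carries the PML-RARA fusion; no drug, dose or time is given. The libraries used an antibody against PPARα, a lipid-sensing nuclear receptor, an antibody labelled PML/RARA, and IgG, a control antibody with 1 library named for each of the others. The labels call the PPARα and PML/RARA libraries Treatment and the IgG libraries Control. Each of the 2 antibodies had 1 peak list and no replicate, so no test between libraries was possible. The IgG libraries were not analysed here, and which epitope the second antibody binds is not stated, so signal from the fusion was not separated from that of unfused PML or RARA protein.

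Ribosomal proteins are needed in nearly equal numbers and in every growing cell, and in mammals their genes are scattered over the chromosomes. Their transcripts usually begin with a C followed by a run of pyrimidines, the terminal oligopyrimidine (TOP) tract, through which mTOR signalling controls their translation. Loss of 1 copy of several of these genes causes Diamond-Blackfan anaemia, a failure of red cell production.

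A PPARα peak lay within 1 kb of an annotated gene end at 55 of the 83 members (66.3%), beside 32.9% of all protein-coding genes. A PML/RARA peak lay there at 81 members (97.6%), beside 58.8% of all protein-coding genes. Every member with a PPARα peak also had a PML/RARA peak, so 55 members had both (66.3%, beside 32.5% of all protein-coding genes), 26 had PML/RARA alone and 2 had neither. With windows of 500 bases 52 of 53 members with PPARα had both, and 44 of 55 did once PML/RARA was cut to as many peaks as PPARα has. The share of coding genes with both was not computed under these settings, so these counts have no background beside them. Both members with no end peak, RPL10L and RPL26L1, are paralogs, and all 73 standard genes had a PML/RARA peak. Among genes that had a PML/RARA peak the gap to the background was smaller: PPARα was called at 67.9% of the 81 members, beside 55.2% of all 11255 such coding genes. In the other direction, PML/RARA was called at 100% of members with PPARα, beside 98.9% of such coding genes. No call is not proof that a site was empty, since the PPARα list held 9829 peaks and the PML/RARA list 46021, and the read depth behind each is unknown.

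**Figure D1:**
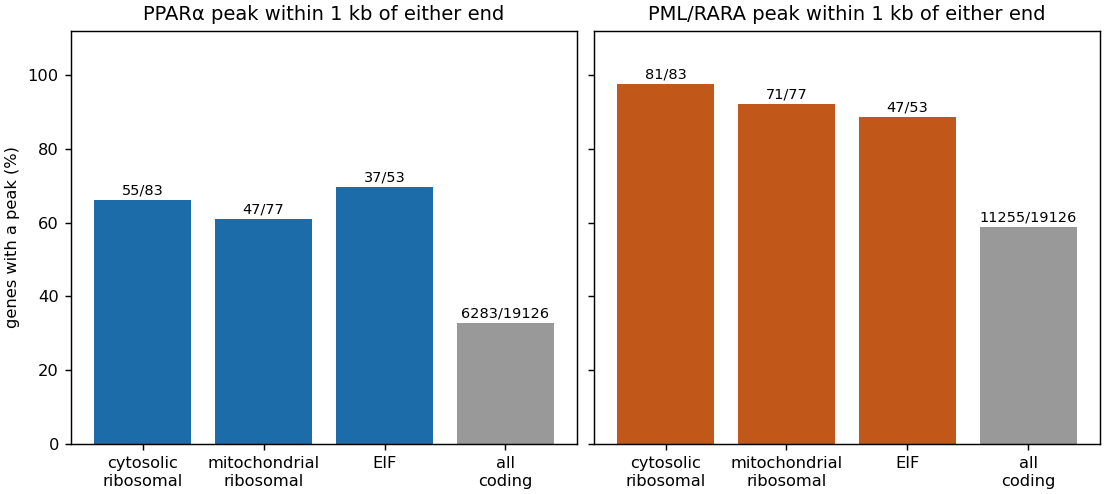
Share of genes, in percent, with a peak within 1 kb of either end, for PPARα and for PML/RARA, in cytosolic ribosomal protein genes, mitochondrial ribosomal protein genes, EIF genes and all coding genes. Members stand at 66.3% for PPARα and 97.6% for PML/RARA, against 32.9% and 58.8% of all coding genes.

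The height of these peaks is given by the authors' fold enrichment over background, a ratio that serves to rank peaks inside 1 list and that cannot be compared from list to list. The best end peak of a gene is the one with the highest −log10 q in that list. Members had a median PPARα fold of 7.35 (quartiles 6.31 and 9.12), beside 7.07 (5.59 and 9.28) over all coding genes with such a peak. Their median PML/RARA fold was 17.4 (13.4 and 20.9), beside 14.2 (9.26 and 19.4) over all coding genes. PPARα peaks at members were thus called more often than at coding genes as a whole, while their middle value lay within the quartiles of all coding genes.

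The PPARα folds ran from 3.48 to 13.2 over the 55 members. The highest were RPS19 at 13.2, RPL35 at 12.4, RPL26 at 11.7, RPL21 at 11.5 and RPS25 at 11.4. RPS19, a protein of the small subunit head, is the gene most often mutated in Diamond-Blackfan anaemia, and RPL35 and RPL26 sit near the exit of the tunnel through which the new protein leaves. The lowest were RPL11 at 3.48, RPL3 at 3.98, RPS2 at 4.73, RPS7 at 5.08 and RPL18 at 5.11. RPL3 lies close to the catalytic centre, and RPL11 binds MDM2 when ribosome assembly is disturbed. The RPL11 peak had a −log10 q of 1.38, close to the smallest value in the PPARα list, 1.32.

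The PML/RARA folds ran from 6.05 to 29.3 over 81 members. The highest were RPL37 at 29.3, RPS25 at 28.9, RPS10 at 27.7, RPL27 at 27.2 and RPL22 at 26.8, and the readthrough gene RPS10-NUDT3 shares the RPS10 peak. The lowest were RPL30 at 6.05, RPL36 at 6.15, RPL17-C18orf32 at 6.40, RPL35A at 6.41 and RPL7A at 7.39. RPS25 was among the 5 highest in both lists, and RPL22 was among the 5 highest for PML/RARA with no PPARα end peak at all.

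**Figure D2:**
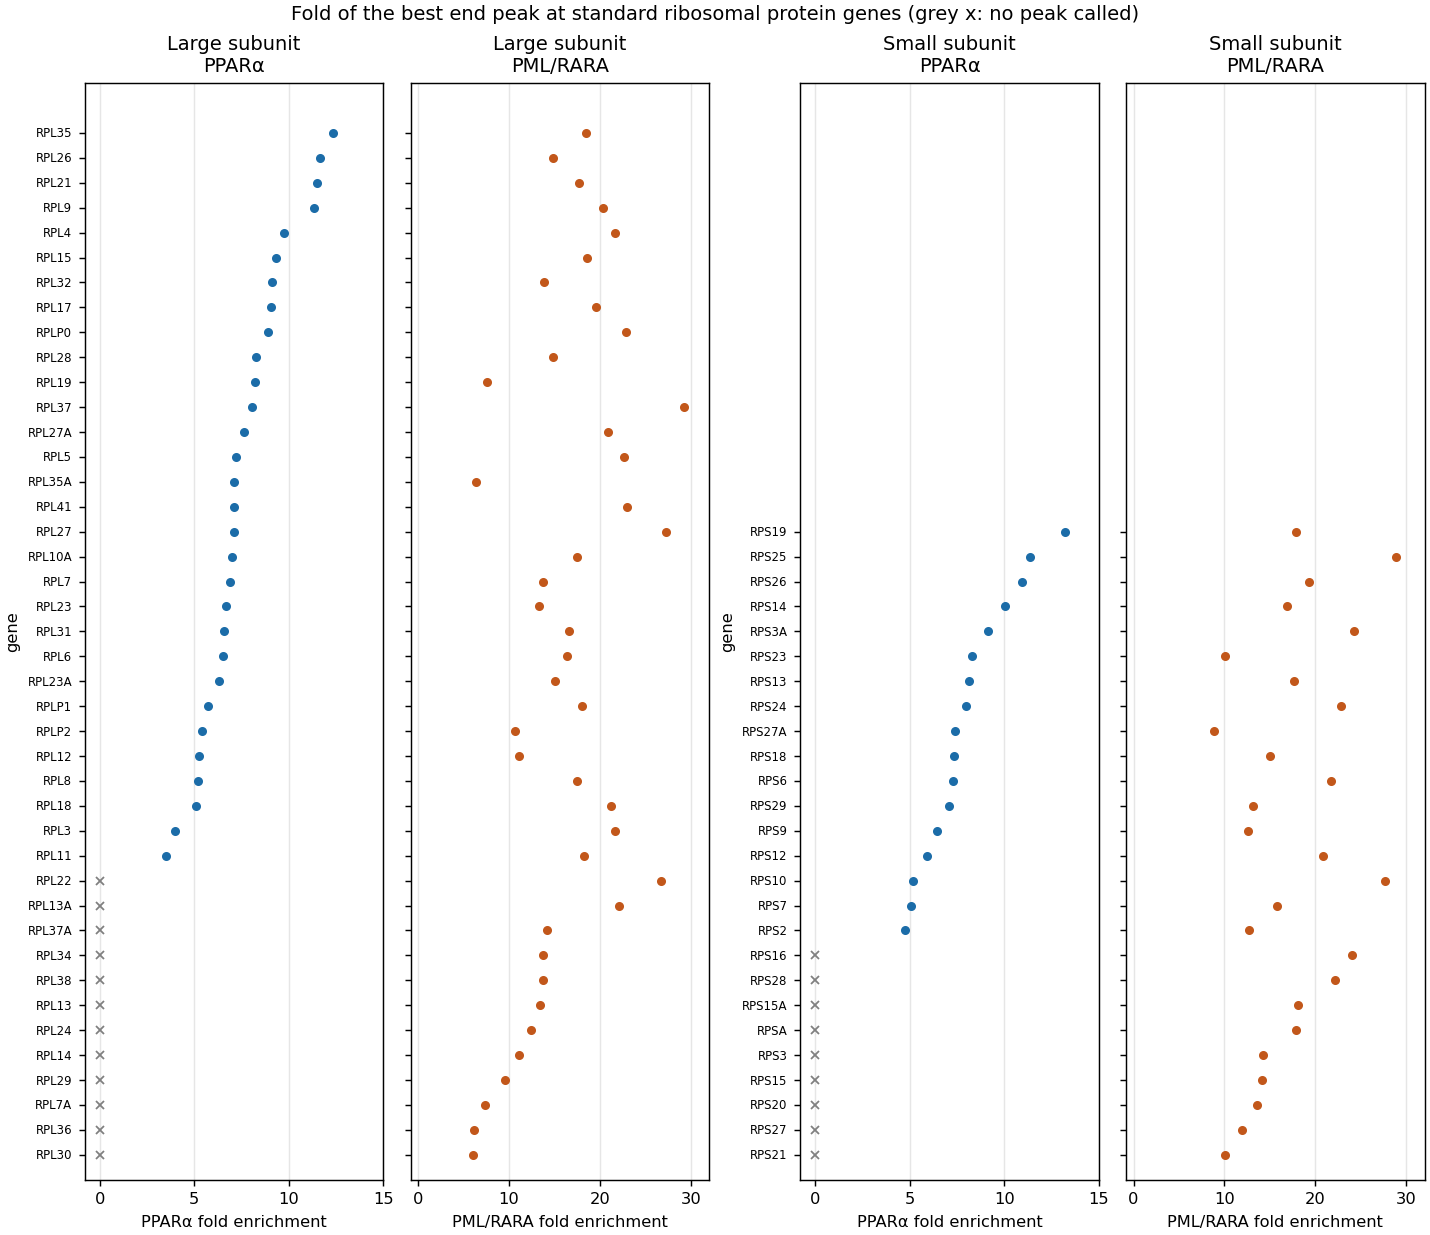
Fold of the best end peak, a ratio over background as the authors give it, for standard genes in each list, PPARα left and PML/RARA right, with the large and the small subunit in separate panels. Every gene drawn has a PML/RARA value, while a grey cross marks genes with no PPARα end peak.

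Large and small subunit genes had close shares in these lists. PPARα end peaks were called at 34 of 51 large subunit members (66.7%) and 21 of 32 small subunit members (65.6%), and PML/RARA end peaks at 49 of 51 and 32 of 32. Among standard genes alone PPARα was called at 30 of 43 large (69.8%) and 19 of 30 small subunit genes (63.3%). The median PPARα fold was 7.41 for large and 7.35 for small subunit members, and the median PML/RARA fold was 17.1 for large and 17.7 for small subunit members. The direction of the difference in PPARα share was not stable: at annotated starts alone it was 22 of 35 large and 16 of 23 small standard genes.

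Members that sit together in the ribosome were compared by their place in it; these groups were drawn up after the values had been seen. Their counts stand beside PPARα end peaks at 67.1% and PML/RARA end peaks at 100% of all standard genes, so a full count for PML/RARA sets no group apart. The P stalk, which recruits and activates the translation factors that hydrolyse GTP, and its base had PPARα and PML/RARA end peaks at 4 of 4 genes. Its PPARα folds were 8.91 at RPLP0, the scaffold of the stalk, 5.73 at RPLP1, 5.39 at RPLP2 and 5.24 at RPL12, which lies at the base. Their PML/RARA folds were 22.9 at RPLP0, 18.0 at RPLP1, 10.7 at RPLP2 and 11.1 at RPL12. RPLP0 was thus the highest of the 4 in both lists.

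RPL5 and RPL11 assemble with 5S ribosomal RNA into a particle that joins the large subunit and can bind MDM2. RPL5 had a PPARα fold of 7.21 and a PML/RARA fold of 22.7. RPL11 had a PPARα fold of 3.48 and a PML/RARA fold of 18.3, so the partners were apart in the PPARα list, where RPL11 was the lowest member.

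The members placed here at the exit tunnel or its mouth were picked with the values known, so their full count carries no weight. All 7 had a PPARα end peak, beside 67.1% of standard genes and 32.9% of coding genes. After RPL35 and RPL26 their folds were 9.74 at RPL4, 9.07 at RPL17, 8.22 at RPL19, 6.56 at RPL31 and 6.30 at RPL23A. The best peaks of RPL4 and RPL17 lay at their finishes, beside other genes. The best peak of RPL23A lay outside the gene, with its summit 262 bases from the start of TLCD1. A lower PPARα peak, with a fold of 5.49, covered the other end of RPL23A and overlapped its best PML/RARA peak. Of the 3 genes at the mRNA entry of the small subunit, RPS9 had a PPARα fold of 6.42 and RPS2 of 4.73, and RPS3 had no PPARα end peak. Of the 18 members known as Diamond-Blackfan anaemia genes, 15 had a PPARα end peak (83.3%, beside 67.1% of standard genes); RPS27 and RPS28 were among those without PPARα. Members that host small nucleolar RNAs in their introns had PPARα end peaks at 18 of 27 standard genes (66.7%), beside 31 of 46 standard genes that host none (67.4%).

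Among the other members with both antibodies, RPS14, whose loss contributes to the anaemia of the 5q deletion syndrome, had a PPARα fold of 10.06 and a PML/RARA fold of 16.9. RPS6, the target of the S6 kinases, had 7.30 for PPARα and 21.7 for PML/RARA. RPS27A, which is made as a fusion with ubiquitin, had 7.40 for PPARα and 8.80 for PML/RARA, among the lower PML/RARA values, and its peaks were shared with CLHC1. RPL37, which had the highest PML/RARA fold, had a PPARα fold of 8.06, near the members' median, and RPL19, with a PPARα fold of 8.22, had a PML/RARA fold of only 7.60.

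The peak with the highest −log10 q was not always the highest in fold or the one at the start. RPS19 had a PML/RARA fold of 15.4 at its start and 17.9 near its finish. RPS9 had a PML/RARA fold of 20.5 at its start and 12.6 at its finish, and the finish peak had the higher −log10 q. RPL35A had a PML/RARA fold of 9.15 at its start and 6.41 at its finish. RPL3 had PPARα folds of 4.94 at its start and 3.98 at its finish, both among the lower PPARα values of the members.

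No PPARα end peak was called at 28 members, of which 24 are standard genes. With their PML/RARA folds, the 13 of the large subunit included RPL22 (26.8), RPL13A (22.1), RPL37A (14.2), RPL34 (13.7), RPL38 (13.7), RPL13 (13.4), RPL24 (12.4), RPL14 (11.1), RPL29 (9.57), RPL7A (7.39), RPL36 (6.15) and RPL30 (6.05). RPL22 is mutated or lost in some leukemias, and RPL38 is required in mice for translation of Hox mRNAs. The 11 of the small subunit included RPS16 (24.0), RPS28 (22.1), RPS15A (18.1), RPSA (17.9), RPS3 (14.2), RPS15 (14.1), RPS20 (13.6), RPS27 (12.0) and RPS21 (10.03). RPS3 lies at the mRNA entry, and RPSA also serves as a laminin receptor. The remaining 4 were RPL3L, with a PML/RARA fold of 17.1, RPL17-C18orf32, with 6.40, and RPL10L and RPL26L1, with no end peak.

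The share of standard genes with a PPARα end peak was lowest among those with the lowest PML/RARA folds, as it was over all coding genes. The 49 standard genes with a PPARα end peak had a median PML/RARA fold of 17.9, against 13.9 in the 24 without. When the standard genes were ranked by PML/RARA fold and cut into 3 groups, PPARα was called at 12 of 25 in the lowest group (48.0%), 18 of 24 in the middle group (75%) and 19 of 24 in the highest group (79.2%). Coding genes within the same fold limits, the members included, had PPARα at 42.1%, 71.5% and 78.2%. Set against coding genes of like PML/RARA height, the share of standard genes with PPARα therefore lay close to the background, and above it in each of the 3 groups. Paralogs and readthrough genes were not in this comparison.

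**Figure D3:**
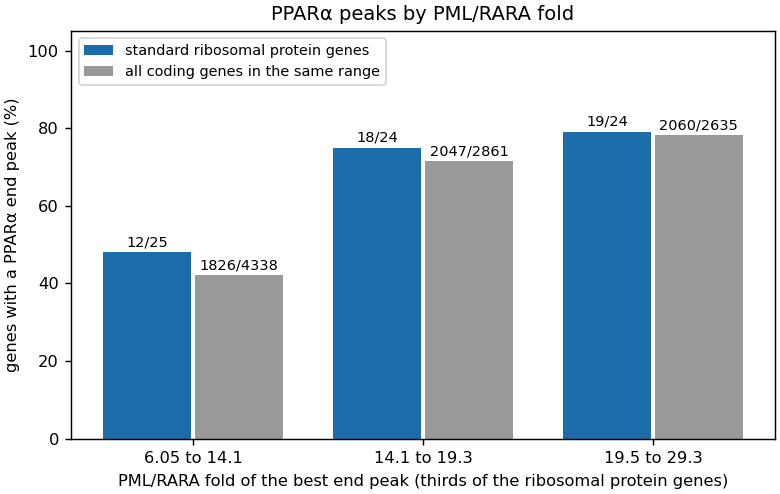
Share of genes with a PPARα end peak, in percent, in 3 groups by the fold of the PML/RARA end peak, for the standard ribosomal protein genes and for all coding genes within the same fold limits. Both rise over the groups, to 79.2% of the standard genes and 78.2% of all coding genes in the highest.

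The place of the peaks was read for the 65 members that have an annotated start in the RefSeq promoter table; the other 18 (among them RPL5, RPL39L, RPL37, RPS10-NUDT3, RPS20, RPL7, RPL30, RPL8, RPL3L, RPS2, RPS15A, RPL23A and RPL23) were not used here. PPARα peaks lay within 1 kb of the start at 43 of the 65 members (66.2%), beside 35.7% of coding genes. PML/RARA peaks did at 64 (98.5%), beside 60.7% of coding genes. Among the 58 standard genes the counts were 38 for PPARα and 58 for PML/RARA. RPL17 and RPL27A had PPARα at the finish alone, and the RPL17 peak lay 231 bases from the start of C18orf32.

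For both antibodies a larger share of summits lay upstream of the annotated start at standard genes than at coding genes as a whole. The median PPARα summit lay at −191 bases from the start, beside −22 over all coding genes, and 9 of 38 PPARα summits (23.7%) lay downstream of the start, beside 47.8%. For PML/RARA the median was −87.5 bases, beside −73, with 6 of 58 (10.3%) downstream, beside 26.2%. The PPARα summit was nearer the start than the PML/RARA summit in 11 of 38 standard genes, beside 1838 of 5342 coding genes, and the median distance between both summits was 170.5 bases, beside 188 bases; both values lay near those of all coding genes. PPARα and PML/RARA end peaks shared at least 1 base at all 55 members that had both, beside 98.6% of such coding genes, and a summit of each lay within 200 bases of the other at 39 (70.9%), beside 58.4%.

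**Figure D4:**
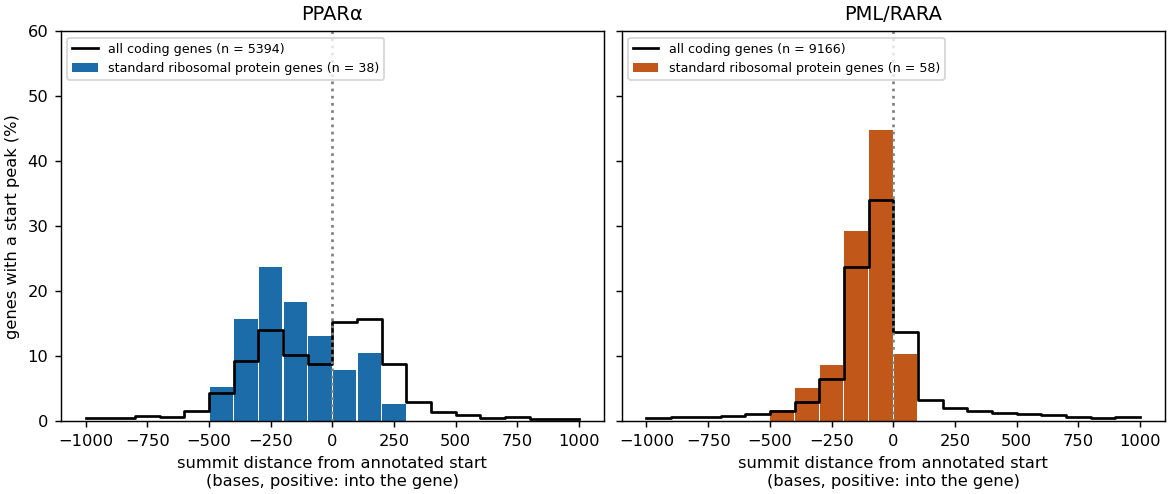
Distance of the best start peak's summit from the annotated start, in bases along the direction of transcription, for PPARα and PML/RARA at standard ribosomal protein genes and at all coding genes. Summits within 1000 bases are drawn; the members' summits gather upstream, with medians of −191 bases for PPARα and −87.5 bases for PML/RARA.

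Some of these peaks are shared with other genes. The best PPARα peak of 19 of the 55 members, and the best PML/RARA peak of 24 of the 81, also lay within 1 kb of an end of a coding gene that is no member. The nearest annotated start was the member's own for 29 of 44 PPARα peaks and 46 of 63 PML/RARA peaks that could be placed. These counts were not made over all coding genes, so whether members share peaks more or less often is not known. RPL35 shares its best peaks of both antibodies with ARPC5L, RPL9 with LIAS, RPL18 with SPHK2 and RPS29 with LRR1, while RPS18 shares its best PPARα peak with VPS52 and its best PML/RARA peak with B3GALT4, so which gene such a peak belongs to cannot be told apart. At RPL4, whose protein reaches into the exit tunnel, the PPARα fold was 9.74 at the finish, beside SNAPC5, and 5.94 at its own start, beside ZWILCH.

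A coding gene that starts within 1 kb upstream and runs the other way was present at 11 of the 58 standard genes (18.97%), beside 11.5% of all coding genes. PPARα lay at the start of 9 of these 11 (81.8%) and of 29 of the 47 without such a neighbour (61.7%). Over all coding genes the shares were 70.0% with such a neighbour and 31.3% without. The members without a facing neighbour stood further above the share of all coding genes than those with one. PML/RARA lay at all 58 starts, beside 91.9% of coding genes with such a neighbour and 56.6% without.

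The promoters were compared over 300 bases, from 250 before the start to 50 after it, with sequences from RefSeq GRCh38.p14. A start that opens with C and continues as at least 5 pyrimidines, the letters of a TOP tract, was found at 40 of the 58 standard genes (69.0%), beside 691 of 15101 coding genes (4.58%). It was present at 24 of 38 standard genes with a PPARα start peak (63.2%) and 16 of 20 without (80.0%), so the share was lower in the genes with PPARα. This count rests on the exact annotated base, and genes with a run beside that base are not counted. The longest pyrimidine run within 20 bases of the start had medians of 11 bases with PPARα and 12.5 without, beside 5 over all coding genes. Mitochondrial ribosomal protein genes had it at 6 of 69 and EIF genes at 9 of 44.

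The promoters below, on hg38, belong to the large and small subunit genes with the highest and lowest PPARα folds among those with a sequence, and to RPL22, which has a high PML/RARA fold and no PPARα end peak, with its paralog RPL22L1 added after its values were seen. Each line runs 5′ to 3′ on the gene's strand from 100 bases before the start to 20 bases from the start on; capitals mark the motifs listed further on and any run of pyrimidines that covers the start.
RPL35, chr9:124861938-124862057, minus strand: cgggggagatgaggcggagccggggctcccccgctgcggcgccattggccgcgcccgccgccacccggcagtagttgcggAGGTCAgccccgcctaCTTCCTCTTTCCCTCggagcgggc
RPL11, chr1:23691679-23691798, plus strand: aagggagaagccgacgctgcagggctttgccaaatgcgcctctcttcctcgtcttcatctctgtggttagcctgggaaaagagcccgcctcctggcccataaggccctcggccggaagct
RPS19, chr19:41860155-41860274, plus strand: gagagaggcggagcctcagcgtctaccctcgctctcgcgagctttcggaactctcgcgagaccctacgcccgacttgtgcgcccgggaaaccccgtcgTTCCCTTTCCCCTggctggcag
RPS7, chr2:3575160-3575279, plus strand: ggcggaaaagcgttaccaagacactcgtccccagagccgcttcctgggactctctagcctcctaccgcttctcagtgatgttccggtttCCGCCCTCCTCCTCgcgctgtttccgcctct
RPL22, chr1:6199576-6199695, minus strand: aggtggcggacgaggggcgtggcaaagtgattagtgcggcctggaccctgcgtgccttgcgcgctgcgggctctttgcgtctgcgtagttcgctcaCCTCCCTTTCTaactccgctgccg
RPL22L1, chr3:170870176-170870295, minus strand: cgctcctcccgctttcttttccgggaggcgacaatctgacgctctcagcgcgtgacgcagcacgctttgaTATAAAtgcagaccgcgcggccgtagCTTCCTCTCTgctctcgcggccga

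RPL35 has a pyrimidine run of 15 bases over its start and an AGGTCA, the hexamer that nuclear receptors bind. That AGGTCA lies outside the PPARα peak and inside the PML/RARA peak. Its PPARα peak covered chr9:124862047-124862461 with the summit at −221 bases, and its PML/RARA peak chr9:124861603-124862450 with the summit at −121 bases. RPS19 has a run of 13 bases and none of the motifs in the stretch shown. Its PPARα peak covered chr19:41859716-41860181 with the summit at −343 bases, so the peak with the highest PPARα fold among members ended upstream of the start itself.

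RPL11 has no pyrimidine run over the annotated start and none of the motifs in the stretch shown. Its PPARα peak covered chr1:23691832-23692213, downstream of the start, with the summit at 188 bases, and its PML/RARA peak chr1:23691626-23691928 with the summit at −78 bases. RPS7 has a run of 11 bases, whose first bases overlap a GGGCGG on the other strand. Its PPARα peak covered chr2:3575275-3575854 with the summit at 202 bases, and its PML/RARA peak chr2:3575106-3575429 with the summit at 16 bases. The lowest PPARα peaks of both subunits with a sequence were centred downstream of the start, and the highest of both upstream of it. These genes were picked for their folds and are too few to tie summit place to fold. Other members did not keep this order: RPL3, at 4.94, had its summit at −244 bases and RPL18, at 5.11, at −183 bases. RPS26, at 10.9, had its summit at 84 bases.

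RPL22 has a run of 11 bases, and only a PML/RARA peak, at chr1:6199422-6199840 with the summit at −56 bases. RPL22L1 has a run of 10 bases and a TATAAA, the TATA box. Its PPARα peak covered chr3:170869823-170870443 with the summit at 138 bases and a fold of 8.58, and its PML/RARA peak chr3:170869910-170870506 with the summit at −4 bases and a fold of 22.2.

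**Figure D5:**
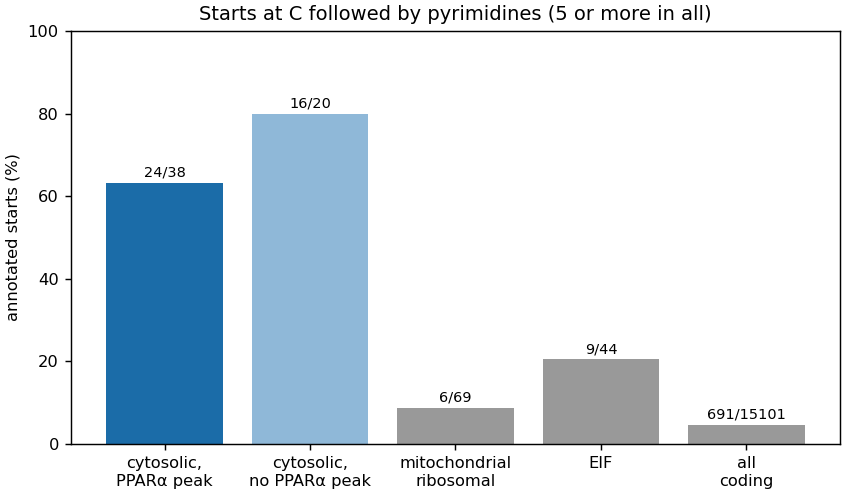
Share of promoters, in percent, that open with C followed by pyrimidines, at least 5 in all, in standard ribosomal protein genes with and without a PPARα start peak, in like groups and in all coding genes. The tract is present at 63.2% of standard genes with PPARα and 80.0% without, against 4.58% of all coding genes.

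Median GC content was 59.0% over the standard genes, beside 62.7% over all coding genes. Standard genes with a PPARα start peak had 58.2% and those without 60.2%, while coding genes with such a peak had 65.0% and those without 61.0%. The order of GC content with and without PPARα was thus opposite in members and in coding genes as a whole.

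Motifs were searched as exact letters on both strands of the 300 bases. CCGGAAGT, a site of ETS factors such as GABP, was found at 9 of 58 standard genes (15.5%), beside 6.29% of coding genes. It was present at 8 of 38 standard genes with PPARα (21.1%) and 1 of 20 without (5.0%), beside 11.3% and 3.51% of coding genes. AAGATGGC, a site of YY1, was found at 6 standard genes (10.3%, beside 3.87%), and GGGCGG, a site of SP1 and KLF factors, at 31 (53.4%, beside 58.7%). TATAAA was found at 5 standard genes, beside 9.83% of coding genes, and CACGTG, the E-box bound by MYC and USF, at 3 (5.17%, beside 8.71%). Split by PPARα, GGGCGG was found at 47.4% of standard genes with it and 65% without, beside 72.1% and 51.3% of coding genes. AAGATGGC was found at 5.26% and 20%, beside 6.41% and 2.45%, and CACGTG at 2.63% and 10%, beside 10.8% and 7.52%. For these motifs the order was opposite in standard genes and coding genes. TATAAA kept the same order, at 5.26% and 15%, beside 5.04% and 12.5%.

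AGGTCA, the single nuclear receptor hexamer, was found at 9 of 58 standard genes (15.5%), beside 11.7% of coding genes. It was present at 7 of 38 standard genes with PPARα (18.4%) and 2 of 20 without (10%). Over coding genes the shares ran the other way, 9.62% with PPARα and 12.9% without, a reversal also seen for GGGCGG, AAGATGGC and CACGTG. RPL6 counts among the 7, though its promoter was read at a start inside the gene, chr12:112411393-112411692, which neither of its PPARα peaks overlaps. AGTTCA, a related hexamer, was found at 3, beside 8.52%. It was present at 1 of 38 standard genes with PPARα and 2 of 20 without, beside 6.92% and 9.41% of coding genes. DR1, a pair of AGGTCA copies 1 base apart that PPAR and RXR bind together and that holds AGGTCA itself, was found at 0 of 58 standard genes and 3 of 15101 coding genes. The peaks reach beyond these 300 bases, and sequence outside them was not searched.

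The paralogs had PPARα end peaks at 5 of 8 and PML/RARA end peaks at 6 of 8, beside 49 of 73 and 73 of 73 standard genes. A paralog and its standard partner often differed. RPL22 had no PPARα end peak and a PML/RARA fold of 26.8, while RPL22L1 had both. RPS27 had no PPARα end peak and a PML/RARA fold of 12.0, while RPS27L, which p53 induces, had 6.33 for PPARα and 12.8 for PML/RARA. RPL3 had 3.98 and 21.7, while RPL3L, its counterpart in skeletal and heart muscle, had no PPARα peak and a PML/RARA fold of 17.1 from a peak 169 bases from the start of MSRB1.

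RPL26 stood at 11.7 for PPARα and at 14.8 for PML/RARA, while RPL26L1 had no peak within 1 kb of its outer ends. In the body of RPL26L1, near its annotated start and that of its antisense gene, lay PPARα peaks with folds of 4.06 and 4.60 and PML/RARA peaks with folds of 6.21 and 14.7. RPL7 had 6.87 for PPARα and 13.7 for PML/RARA, and RPL7L1, which acts in ribosome assembly, had 10.4 and 19.4 from peaks beside PEX39. At its own start RPL7L1 had 9.60 for PPARα and 10.02 for PML/RARA.

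The partners of 3 paralogs lie on the X chromosome and are no members. RPL10L, a copy without introns that serves the testis, had no peak in either list, while RPL10 had a PPARα fold of 4.38 and a PML/RARA fold of 23.005. RPL36AL had 8.38 for PPARα and 21.4 for PML/RARA from peaks shared with MGAT2, and RPL36A had 4.94 and 17.4. RPL39L, known from testis and some cancers, had 10.2 and 14.4, and RPL39 had 9.82 and 20.1. How reads that match several near-identical copies were placed is not stated.

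Away from the ends, peaks were few. PPARα peaks lay in the bodies of 6 members (7.23%, beside 10.7% of coding genes) and PML/RARA peaks in those of 11 (13.3%, beside 37.3%). Members are short, with a median length of 5035 bases beside 24476.5 over all coding genes, so end windows cover much of most of them. The 2 readthrough genes and RPL6 had body peaks at annotated starts inside them. RPS10-NUDT3 had a PPARα peak with a fold of 5.25 at the start of NUDT3. It had 6 PML/RARA body peaks, with summits 102 and 610 bases from the NUDT3 start and the others 5902 bases or more from any listed start. RPL17-C18orf32 had a PPARα peak with a fold of 9.07 at the start of C18orf32. RPL6 had 5.83 for PPARα and 9.67 for PML/RARA near a start of its own.

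RPS29, a small zinc-binding protein of the small subunit, had a PPARα body peak at chr14:49586146-49586970 with a fold of 9.06. Its PML/RARA body peak lay at chr14:49586135-49586707, with a fold of 26.5. Both lay over 12 kb from the nearest start in the promoter table, which was a start of RPS29 itself. That table does not cover every gene, and starts nearer these peaks may be missing from it. The end peaks of RPS29, which it shares with LRR1, were lower, at 7.08 for PPARα and 13.2 for PML/RARA. RPL13 had a PPARα body peak with a fold of 4.14 and no PPARα end peak. PML/RARA body peaks with no PPARα beside them lay, among others, in RPS24 (14.3), RPL3 (4.94), RPL13A (3.44) and RPS19 (3.37).

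Some members lie within 100 kb of each other. RPS26 and RPL41, 71.9 kb apart, had PPARα folds of 10.9 and 7.09 and PML/RARA folds of 19.3 and 22.99. The best peaks of RPL41 are shared with ZC3H10, and its PPARα summit lay 1104 bases downstream of its start. At its own start RPL41 had a PML/RARA fold of 4.15. RPS29 and RPL36AL lie 19.8 kb apart and both had peaks of both antibodies. RPL3L and RPS2 lie 7.37 kb apart, with PPARα called at RPS2 and not at RPL3L.

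Other gene groups of protein synthesis ranged around the members. Mitochondrial ribosomal protein genes had PPARα end peaks at 47 of 77 (61.0%) and PML/RARA end peaks at 71 of 77 (92.2%), and EIF genes, which encode initiation factors, at 37 of 53 (69.8%) and 47 of 53 (88.7%). The members' PPARα share of 66.3% lay between both. Of 12 elongation factor and other TOP mRNA genes, 11 had PPARα (91.7%) and 12 PML/RARA; EEF2, the translocation factor, was the one without PPARα, while EEF1A1, which delivers aminoacyl-tRNA, had 9.97 for PPARα and 21.7 for PML/RARA. Ribosome assembly factors had PPARα peaks at 19 of 27 genes and PML/RARA peaks at 26, and genes of RNA polymerase I and its factors, which make ribosomal RNA, at 10 of 15 and 15 of 15. FAU, which encodes a ribosomal protein fused to a ubiquitin-like protein, had no PPARα end peak and a PML/RARA fold of 17.8.

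Promyelocyte marker genes had PPARα end peaks at 1 of 8 (MPO, at 3.99) and PML/RARA end peaks at 5 of 8 (62.5%), beside 32.9% and 58.8% of coding genes. Marker genes of other lineages had them at 1 of 7 (CD8A, at 3.30) and 2 of 7, so these counts do not check the identity of the cells. Peaks show where an antibody's signal was called and do not measure expression of these genes or of the members.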

How the data were processed

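The authors deposited 1 narrowPeak list per antibody, in hg38 coordinates per the submitters' processing notes. Tools listed in those notes are bedtools, SAMtools, MACS 1.4.2 and Bowtie2 2.2.9; roles, settings, use of the IgG libraries, duplicate handling and treatment of reads that map to several places are not given in the sources used here. Each deposited peak carries a fold enrichment, a linear ratio over background, −log10 p and −log10 q values, a score that is 10 times the −log10 q and a summit position. Read depth is unknown.

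Peaks were set against RefSeq GRCh38.p14 genes with Python 3.11.15 and pandas 2.3.3. A peak lay at a gene end when it shared at least 1 base with the 1 kb window on either side of the annotated start or finish, and in the body when it touched the gene but no end window. The best peak of a gene had the highest −log10 q. Starts and strands came from the RefSeq promoter table, which matched 65 of the 83 members and 15101 coding genes. The assignment was tested on simulated peaks. No p-value was computed, since each antibody has 1 list and no replicate. The members, the lists and the alternatives (other windows, stricter peaks, a shortened PML/RARA list, summits, starts alone, fewer members) were chosen with earlier results of these data known, and the grouping of members by role was drawn up after their values were seen. The plan named each member without a PPARα end peak, the 5 highest and 5 lowest folds per list, members with body peaks, and all paralogs with their partners; other members are named as examples of their role. Some genes that these rules select are not reported here and stay in the counts.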

Additional observations from a re-analysis of the deposited data

How the results depend on the processing

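The alternatives were windows of 500 or 5000 bases, stricter peaks (−log10 q or fold from 5 up), a PML/RARA list cut to as many peaks as PPARα has, summits in place of any shared base, annotated starts alone, stricter overlap and members without paralogs and readthrough genes. Over 66 values, 57 stayed the same by the criteria used, 4 moved and 5 changed direction. Members with a body peak numbered 11, against 4 with windows of 5000 bases, 7 with fold of at least 5 and 6 with the shortened list; the median PML/RARA fold was 17.4, against 19.3 with the shortened list. The large minus small subunit difference in PPARα share was 1.04 percentage points, against −2.88 with windows of 500 bases, −2.88 with summits and −7.42 at starts alone. The standard minus paralog difference was 4.62 percentage points, against −2.23 with −log10 q of at least 5 and −17.8 at starts alone, which leaves 65 genes. With the shortened list 57 members (68.7%) kept a PML/RARA end peak, beside 30.9% of coding genes. Read depth is unknown, so a missing peak is not absence of binding. No paired analysis was possible because each antibody has 1 list.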
